A study of Mus musculus with 12 samples.

Results

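The Hippo pathway coactivators Yap1 and Wwtr1, the 4 TEAD transcription factors Tead1 to Tead4, the YAP target genes Amotl2 and Ankrd1, and the apoptosis inhibitors Birc2 and Birc3, which lie beside Yap1 on mouse chromosome 9, were followed through 12 bulk RNA-seq libraries. These 10 genes were chosen by name, with earlier results of these data known, from the 24421 genes of the authors' stabilized table. All 10 were among the 18948 genes tested. The tumor group held 6 sarcomas from bone or bone marrow of p53 knockout mice. The KO MSC group held 3 libraries of bone marrow mesenchymal stem cells from p53 knockout mice, sorted as CD45-Ter119-CD31-LepR+CD140a+. The WT MSC group held 3 libraries of cells sorted in the same way from p53 wild-type mice. Genotype was given only as p53 knockout or wild type, with no allele, Cre driver, age or strain, and all samples were labelled freshly isolated. The labels call the tumor material tumor cells but describe no sort of it.

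In the Hippo pathway, the kinases MST1 and MST2 (genes Stk4 and Stk3) activate LATS1 and LATS2, which phosphorylate YAP and its relative TAZ, the product of Wwtr1. Phosphorylated YAP and TAZ stay in the cytoplasm, and the unphosphorylated proteins enter the nucleus and switch on genes through TEAD factors, which bind the DNA. In mesenchymal cells the pathway responds to stretch, cell shape and matrix stiffness, which act largely on the protein, so the RNA of Yap1 alone does not measure its activity. BIRC2 and BIRC3 (cIAP1 and cIAP2) are ubiquitin ligases that act with TRAF2 on RIPK1 below the TNF receptor and restrain the noncanonical NF-kB kinase made by Map3k14.

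Values are stabilized log2 values. Genes with few reads sit at or near a floor of this scale, which shrinks their differences. The sequencing depth behind them is unknown. They are not corrected for gene length, so levels are compared between groups and not between genes. Libraries fell into 2 batches by the floor values they share exactly. KO MSC 1, WT MSC 1 and tumors 1 to 3 were in batch 1 and the others in batch 2. Of 12918 genes with a floor, 2632 lay at it in KO MSC 1 and 3730 in WT MSC 1. In each of the other libraries 9251 to 12336 lay at it. The part of this difference in the results below was not tested. The targeted gene, Trp53, went against the label in part of the KO MSC group. Its value was 10.49, 9.76 and 6.96 in the libraries labelled KO MSC 1, 2 and 3, against 9.96, 10.04 and 10.61 in WT MSC libraries, and it lay between 6.79 and 9.16 in tumors. Of the libraries labelled KO MSC, only KO MSC 3 therefore stood well below the WT range, and it also had the most genes at the floor (12336). Since no allele is given, this RNA does not tell whether a library is knockout. Lepr, the gene of the sorting receptor, was at 11.6 to 14.1 in the libraries labelled KO MSC, 14.6 to 15.6 in WT MSC libraries and 4.10 to 8.93 in tumors. Tumors also held RNA of other cell types. The mean level of 12 macrophage markers was 11.2 to 14.1 in tumors, against 5.36 to 6.90 in libraries labelled KO MSC and 5.28 to 6.94 in WT MSC libraries, and 11 of the 12 rose in both tumor comparisons. Of 10 endothelial markers, 4 rose against the libraries labelled KO MSC and 7 against WT MSC libraries. Of 10 neutrophil and granulocyte markers, 6 and 3 fell in the same comparisons, and of 10 erythroid markers, 4 and 4. Lymphocyte markers rose in 2 of 10 in each, and smooth muscle markers in 2 and 3 of 10. The sorted MSC libraries also held RNA of blood cells, at uneven levels. The mean level of the neutrophil and granulocyte markers was 12.04, 9.16 and 8.08 in KO MSC 1 to 3. It was 10.42, 8.92 and 7.05 in WT MSC 1 to 3 and 5.22 to 7.38 in tumors. That of the erythroid markers was 10.22 to 12.11 in libraries labelled KO MSC and 9.51 to 12.6 in WT MSC libraries. In tumors it was 7.31 to 10.61. Of all tested genes, 2.7% rose and 2.28% fell against the libraries labelled KO MSC. Against WT MSC libraries 10.4% rose and 10.9% fell. Of 10 LepR stromal markers, 6 fell against the libraries labelled KO MSC and 10 against WT MSC libraries. The part of these cell types in the results below was not tested, and in bulk RNA fewer cells of a type and less RNA per cell cannot be told apart.

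Of the coactivators, Wwtr1 was higher in every tumor than in any MSC library, while Yap1 in tumors stood above the libraries labelled KO MSC and overlapped with WT MSC libraries. Wwtr1 was at 9.33, 10.44 and 12.17 (lowest, median, highest) in tumors. It was at 6.87, 8.20 and 7.93 in the libraries labelled KO MSC 1 to 3, and at 7.73, 8.90 and 8.27 in WT MSC 1 to 3. The 6 tumors thus did not overlap with either MSC group, whereas the MSC groups overlapped with each other. The difference was 2.94 ± 0.64 (SE; 6 tumors, 3 libraries labelled KO MSC; adjusted p = 0.0252, limma), a 7.68-fold difference on the stabilized scale. Against the 3 WT MSC libraries it was 2.31 ± 0.62 (adjusted p = 0.0240, limma). Among tumors its SD was 1.14, larger than that of 91.0% of tested genes, and that of Yap1 was 0.388. Within batches the difference from the libraries labelled KO MSC was 3.50 in batch 1 and 2.78 in batch 2, and that from WT MSC libraries was 2.65 and 2.26, none of them past the threshold. Single libraries decided the calls: the first lost its call without KO MSC 1 (adjusted p = 0.161), without KO MSC 2 (0.0604) and without tumor 5 (0.0501), and the second without WT MSC 1 (0.119) and without WT MSC 3 (0.0818), all in limma.

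Yap1 was at 7.76, 8.04 and 8.88 (lowest, median, highest) in tumors, at 6.36, 7.17 and 7.06 in the libraries labelled KO MSC and at 7.42, 8.30 and 7.93 in WT MSC libraries. The libraries labelled KO MSC were the lowest 3 of the 12 and overlapped with neither other group. None of its differences passed the test. The difference of tumors from the libraries labelled KO MSC was 1.26 ± 0.40 (adjusted p = 0.0847, limma), and passed in a fit over all 12 libraries (0.0440) and with library weights (0.0174). The libraries labelled KO MSC differed from WT MSC libraries by -1.02 ± 0.47 (adjusted p = 0.596, limma) and by -1.06 in batch 1, with a like value in batch 2. Tumors differed from WT MSC libraries by 0.24 ± 0.33, with opposite signs in the batches (0.94 and -0.22). In order of group means, Wwtr1 ran from tumors through WT MSC to KO MSC, and so did Yap1, but the WT and KO MSC libraries overlapped for Wwtr1 and the tumors and WT MSC libraries for Yap1.

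**Figure D1:**
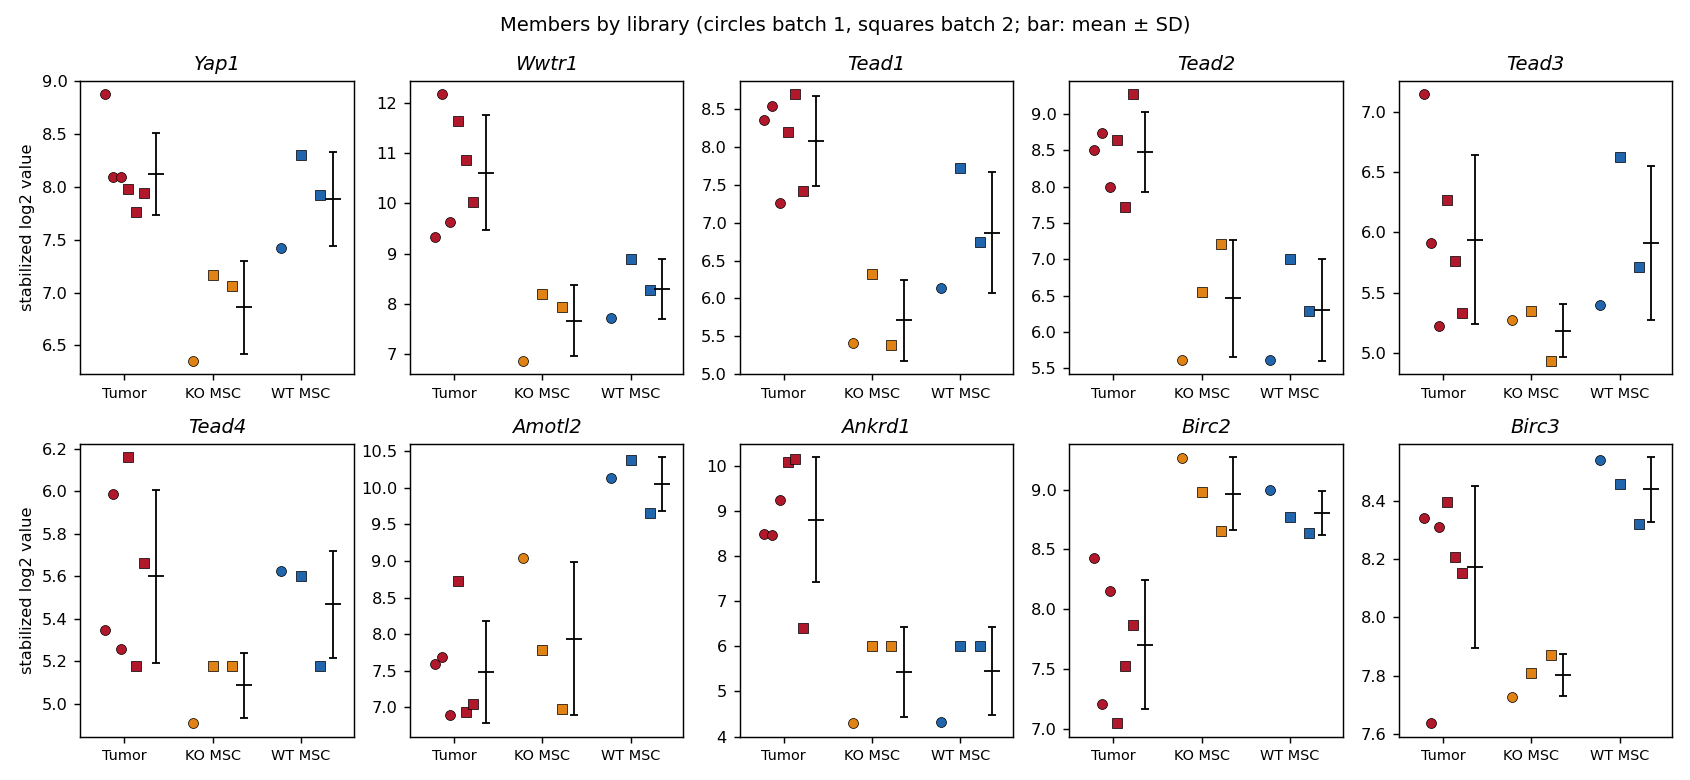
Stabilized log2 values (vertical axis, own range per gene) of the 10 genes in 6 tumors, 3 libraries labelled KO MSC and 3 WT MSC libraries; each point is 1 library, circles are batch 1, squares batch 2, and the bar beside each group is its mean ± SD. Wwtr1, Tead2 and Ankrd1 lie higher in all 6 tumors than in any MSC library, and Birc2 lies lower. For Ankrd1, tumor 6 (6.41) lies close to the floor of batch 2 (6.01), and the floors of the batches differ. Amotl2 is highest in the 3 WT MSC libraries.

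Among the TEAD factors, which carry YAP and TAZ to DNA, Tead2 rose in tumors against both MSC groups and Tead1 against the libraries labelled KO MSC. Tead2 was at 7.72, 8.57 and 9.27 (lowest, median, highest) in tumors, at 5.61, 6.55 and 7.22 in the libraries labelled KO MSC and at 5.61, 7.01 and 6.28 in WT MSC libraries. Every tumor stood above every MSC library, and the MSC groups overlapped. The difference was 2.02 ± 0.48 against the libraries labelled KO MSC (adjusted p = 0.0345, limma) and 2.18 ± 0.42 against WT MSC libraries (adjusted p = 0.00523, limma). The first difference was 2.80 in batch 1 and 1.66 in batch 2, and the second 2.80 and 1.90. The first lost its call when any 1 of 7 of the 9 libraries was left out: adjusted p was 0.180 without KO MSC 1, 0.0935 without KO MSC 2, and 0.0515 to 0.0645 without tumor 1, 2, 3, 4 or 6 in turn. The second kept its call without each library in turn. Tead2 overlaps on the opposite strand with Cd37, a leukocyte tetraspanin gene, over 13 exonic bases, and the libraries do not mark strand. Cd37 was at 6.38 to 8.88 in tumors, and its differences from the libraries labelled KO MSC (0.48 ± 0.74) and WT MSC libraries (0.60 ± 0.53) did not pass.

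Tead1 was at 7.26, 8.28 and 8.70 (lowest, median, highest) in tumors, at 5.42, 6.32 and 5.38 in the libraries labelled KO MSC and at 6.14, 7.72 and 6.75 in WT MSC libraries. Tumors did not overlap with the libraries labelled KO MSC and overlapped with WT MSC libraries, as the MSC groups did with each other. The difference from the libraries labelled KO MSC was 2.37 ± 0.47 (adjusted p = 0.0185, limma), 2.64 in batch 1 and 2.25 in batch 2, and it lost its call without KO MSC 1 (0.108). That from WT MSC libraries was 1.21 ± 0.45 (adjusted p = 0.0805, limma), and passed with the filter on a mean of at least log2 of 100 (0.0494) and with quantile scaling (0.0463). Tead3 and Tead4 did not pass in any comparison. Tead3 was at 5.23 to 7.14 in tumors, at 4.94 to 5.35 in the libraries labelled KO MSC and at 5.40 to 6.63 in WT MSC libraries, so that the MSC groups did not overlap. Its difference between tumors and WT MSC libraries, 0.03 ± 0.44, changed sign with quantile scaling. Tead4 lay close to its floor everywhere: above the floor of its batch it stood at 0 to 1.66 in tumors, at 0 to 0.579 in the libraries labelled KO MSC and at 0 to 1.30 in WT MSC libraries. Its floor in batch 1 was not observed. That floor was inferred from the floor of batch 2, as an equal and opposite shift.

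**Figure D2:**
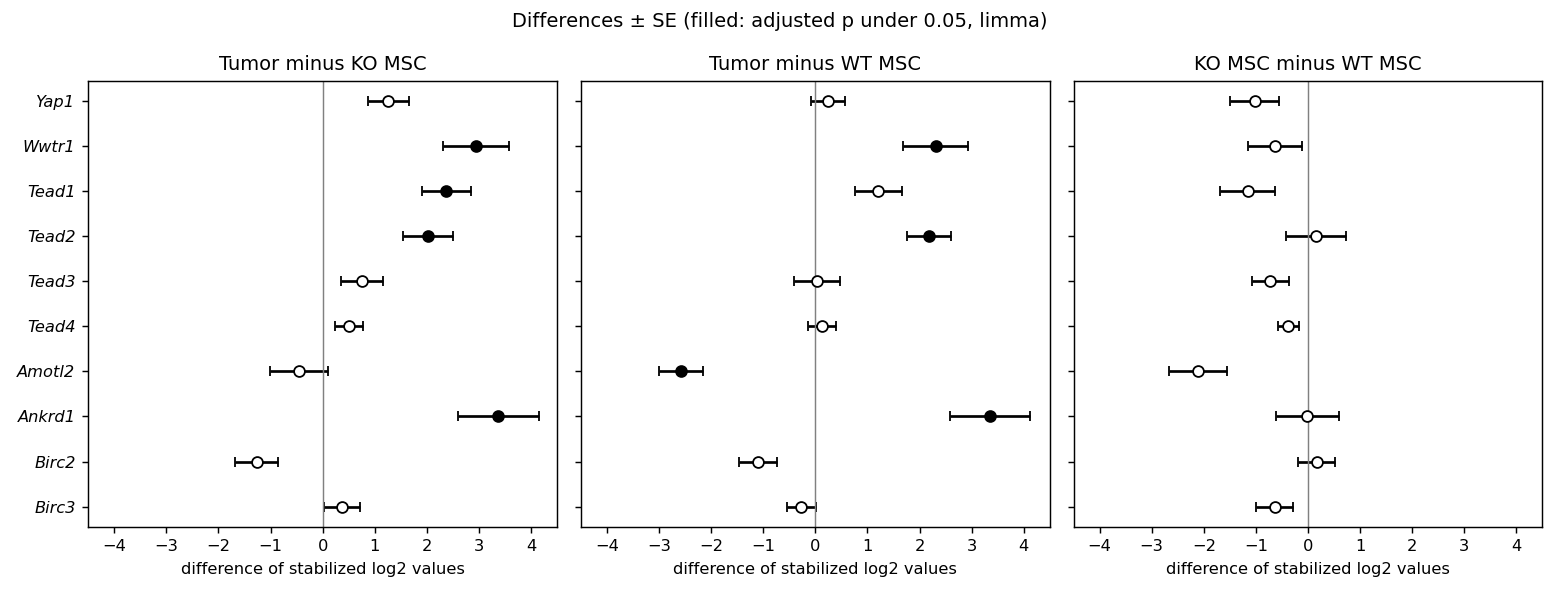
Differences of stabilized log2 values (horizontal axis) for the 10 genes (rows) in tumors minus libraries labelled KO MSC, tumors minus WT MSC libraries and libraries labelled KO MSC minus WT MSC libraries; bars are ± 1 SE and filled points have an adjusted p under 0.05 in limma. There are 4 filled points in each tumor panel and 0 in the MSC panel, and Amotl2 is the lowest point of both panels against WT MSC libraries.

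Of the YAP target genes, Ankrd1 rose in tumors against both MSC groups, and Amotl2 fell against WT MSC libraries. Amotl2 encodes an angiomotin-like junction protein that binds YAP and holds it outside the nucleus, and is itself switched on by YAP. It was at 6.89, 7.32 and 8.72 (lowest, median, highest) in tumors, at 9.05, 7.79 and 6.97 in the libraries labelled KO MSC and at 10.13, 10.38 and 9.66 in WT MSC libraries. The WT MSC libraries were the highest 3 of the 12, and tumors and libraries labelled KO MSC overlapped. Amotl2 fell in tumors against WT MSC libraries by 2.58 ± 0.42 (adjusted p = 0.00266, limma), with differences of -2.74 in batch 1 and -2.45 in batch 2, and kept its call without each library in turn. The libraries labelled KO MSC differed from WT MSC libraries by -2.12 ± 0.56 (unadjusted p = 0.00539, adjusted p = 0.551, limma), by -1.08 in batch 1 and -2.64 in batch 2, and the difference passed with library weights alone (0.0141). Between tumors and libraries labelled KO MSC it was -0.46 ± 0.56, -1.66 in batch 1 and 0.18 in batch 2.

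Ankrd1, the gene of a stress-induced ankyrin repeat protein also known from the sarcomere of striated muscle, was at 8.48, 8.48, 9.25, 10.08, 10.15 and 6.41 in tumors 1 to 6. It was at 4.29, 6.01 and 6.01 in the libraries labelled KO MSC and at 4.33, 6.01 and 6.01 in WT MSC libraries. Of the MSC libraries, the 4 at 6.01 lay exactly at the floor of batch 2. Ankrd1 rose by 3.37 ± 0.78 against the libraries labelled KO MSC (adjusted p = 0.0318, limma) and by 3.36 ± 0.77 against WT MSC libraries (adjusted p = 0.0116, limma).
Its floor differs between batches, and that of batch 1, 3.50, was likewise not observed but inferred from that of batch 2. The distance above the floor was therefore also taken. It was 4.99, 4.98, 5.75, 4.07, 4.14 and 0.399 in tumors 1 to 6, 0.793, 0 and 0 in the libraries labelled KO MSC and 0.832, 0 and 0 in WT MSC libraries. On this scale, which rests in batch 1 on the inferred floor, tumor 6 stood within the range of both MSC groups and the other 5 tumors stood far above it. The mean differences were 3.79 from the libraries labelled KO MSC and 3.78 from WT MSC libraries (exact two-sided permutation p = 0.0476 for each, 6 tumors against 3 libraries). Within batches the stabilized difference was 4.45 in batch 1 and 2.87 in batch 2 against the libraries labelled KO MSC, and 4.41 and 2.87 against WT MSC libraries. The first call was lost without KO MSC 1 (adjusted p = 0.186, limma), KO MSC 2 (0.0736), tumor 3 (0.0615), tumor 4 (0.0537) or tumor 5 (0.0593), and the second without WT MSC 1 (0.0766). The mean level of 10 skeletal muscle markers was 8.57, 5.37, 10.8, 14.5, 7.30 and 6.07 in tumors 1 to 6, against 4.91 to 5.80 in libraries labelled KO MSC and 4.74 to 5.79 in WT MSC libraries, and 0 of the 10 passed in either tumor comparison. The part of muscle RNA in the values of Ankrd1 was not tested.

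In tumors against the libraries labelled KO MSC, 4 of the 10 genes rose and 0 fell, beside 4.98% of all tested genes called in either direction (2.7% that rose and 2.28% that fell). Their median difference was 1.01 and that of all tested genes 0.04. Against WT MSC libraries 3 rose and 1 fell, beside 21.3% of all tested genes called (10.4% that rose and 10.9% that fell). Their median difference was 0.19 and that of all tested genes -0.06. Between the libraries labelled KO MSC and WT MSC libraries 0 were called, beside 0.0% of all tested genes: limma called 0 of 18948 genes, with 1637 at an unadjusted p under 0.05, and with library weights, whose estimate did not converge there, 2447 genes and 1 of the 10. In that comparison Yap1, Tead3, Amotl2 and Birc3 were lower with no overlap, 4 of 10 beside 8.93% of all tested genes, and 8 of the 10 differences were below 0, with a median of -0.63 against -0.01 for all tested genes. The 10 genes were chosen with earlier results of these data known, so these shares only describe them. The comparisons share libraries and are not independent of each other. Whether each library stands for its own animal is not in the labels. The p-values therefore take the spread among the libraries, technical or not, as their error.

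TEAD factors bind the motif GGAATG, and its letters were searched on both strands of the 250 bases before each RefSeq transcription start (GRCm38.p6). Of the 8 genes with a RefSeq window, Yap1, Wwtr1, Tead3, Amotl2 and Ankrd1 held it, and Tead2, Birc2 and Birc3 did not. Tead1 and Tead4 were not matched. These 8 genes have 12 windows, of which 7 held it. The 2 windows of Wwtr1 overlap and share the same copy of the motif, so the 7 count that copy more than once. The motif stood in 12.6% of 32851 windows of the same length over all genes, or in 14.4% of 27025 genes with a window, and 2 or more copies stood in 1.02% of windows. For the target genes among the 10, Ankrd1 and Amotl2, and for both coactivators, 1 window each is given 5′ to 3′ on the strand of the gene, with the motif, or its reverse complement CATTCC, in capitals.
Ankrd1, chr19:36119845-36120094, minus strand: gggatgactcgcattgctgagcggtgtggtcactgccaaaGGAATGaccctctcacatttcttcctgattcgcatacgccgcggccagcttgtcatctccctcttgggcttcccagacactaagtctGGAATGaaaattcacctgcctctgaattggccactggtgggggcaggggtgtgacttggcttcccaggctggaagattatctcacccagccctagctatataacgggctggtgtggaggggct
Amotl2, chr9:102717554-102717803, plus strand: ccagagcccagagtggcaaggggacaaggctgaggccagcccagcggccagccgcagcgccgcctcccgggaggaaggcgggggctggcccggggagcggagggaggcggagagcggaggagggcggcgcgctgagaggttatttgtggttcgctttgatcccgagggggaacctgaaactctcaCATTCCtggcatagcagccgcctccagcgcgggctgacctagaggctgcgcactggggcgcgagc
Wwtr1, chr3:57575911-57576160, minus strand: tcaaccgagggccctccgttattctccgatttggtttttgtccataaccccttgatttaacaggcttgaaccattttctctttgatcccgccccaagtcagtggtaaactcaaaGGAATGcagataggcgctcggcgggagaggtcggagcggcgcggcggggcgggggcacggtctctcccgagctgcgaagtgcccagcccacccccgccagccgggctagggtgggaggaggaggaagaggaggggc
Yap1, chr9:8004597-8004846, minus strand: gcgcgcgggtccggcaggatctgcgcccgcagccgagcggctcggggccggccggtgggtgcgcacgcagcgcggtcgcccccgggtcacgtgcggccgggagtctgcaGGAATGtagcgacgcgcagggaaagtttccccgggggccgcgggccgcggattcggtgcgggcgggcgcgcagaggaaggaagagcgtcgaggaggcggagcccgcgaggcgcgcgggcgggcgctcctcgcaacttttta
Ankrd1 held 2 copies on the strand of the gene, which began 210 and 123 bases before the start. Amotl2 held 1 copy on the opposite strand, 65 bases before the start. The copy of Wwtr1 began 136 bases and that of Yap1 141 bases before the start. The longer motif GGAATGT stood in 3 of the 8 genes, Yap1, Tead3 and Amotl2, and in 3.75% of all genes with a window. Of the 18 further YAP target genes described below, 11 had a window, of which 3 held the shorter motif and 2 the longer. A match of letters shows no binding.

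Of 18 further YAP target genes, 17 had a lower mean in the libraries labelled KO MSC than in WT MSC libraries, but 0 passed the test. Their median difference was -1.28, against -0.01 for all tested genes, and 11 of the 18 did not overlap between the groups, beside 15.2% of all tested genes. Cyr61, the matricellular protein gene most used as a YAP readout, was at 11.8, 9.56 and 9.93 in the libraries labelled KO MSC, against 13.1, 13.2 and 12.4 in WT MSC libraries, a difference of -2.47 ± 0.63 (adjusted p = 0.551, limma). Tgfb2, a TGF-beta ligand gene, was at 5.92, 4.85 and 4.85, against 6.64, 8.42 and 7.88 in WT MSC libraries, a difference of -2.44 ± 0.59. Its value in KO MSC 2 and KO MSC 3 was exactly the same and the lowest of batch 2, so both sat at the floor. Both genes were lower in each library labelled KO MSC than in any WT MSC library. The median of the list was -0.93 in batch 1, where KO MSC 1 with Trp53 at 10.49 is the only library labelled KO MSC, and -1.32 in batch 2. It was -1.11 without KO MSC 3. With library weights, whose estimate did not converge, 11 of the 18 fell, beside 8.55% of all tested genes. In the same comparison 10 of 10 LepR stromal markers had differences below 0, with a median of -1.30, and 0 of them passed. Their part in the values of the targets was not tested.

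In tumors against WT MSC libraries 4 of these 18 targets fell and 0 rose, beside 10.9% of all tested genes that fell and 10.4% that rose. Cyr61 fell by 3.17 ± 0.61 (adjusted p = 0.00530, limma) and Ctgf, its relative and a fibrosis factor, fell by 3.02 ± 0.79 (adjusted p = 0.0210). Crim1, a BMP-binding membrane protein gene, fell by 1.81 ± 0.39 (0.00930) and Rbms3, an RNA-binding protein gene, fell by 1.92 ± 0.49 (0.0186). Cyr61 was at 7.80 to 11.2 in tumors and at 12.4 to 13.2 in WT MSC libraries, and Ctgf at 6.79 to 10.9 and 11.7 to 12.6, so neither overlapped. The lowest tumor for both was tumor 5, in which Ankrd1 was at its highest of 10.15. Ctgf lost its call without WT MSC 1 (0.0956) or WT MSC 2 (0.0821), Crim1 without WT MSC 2 (0.0511), and Rbms3 without any 1 WT MSC library (0.0590 to 0.0795). Without WT MSC 2 the list had 1 gene that fell, without WT MSC 1 it had 2, and without tumor 2 it had 4 that fell and 3 that rose. Against the libraries labelled KO MSC 1 of 18 rose, Tgfb2, beside 2.7% of all tested genes that rose. Its difference was 2.52 ± 0.50 (adjusted p = 0.0188, limma), with KO MSC 2 and KO MSC 3 at the floor. The call was lost without KO MSC 1 (0.0579) or KO MSC 2 (0.0752). The medians of the list were 0.73 and -0.11 in tumors against the libraries labelled KO MSC and against WT MSC libraries, beside 0.04 and -0.06 for all tested genes.

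**Figure D3:**
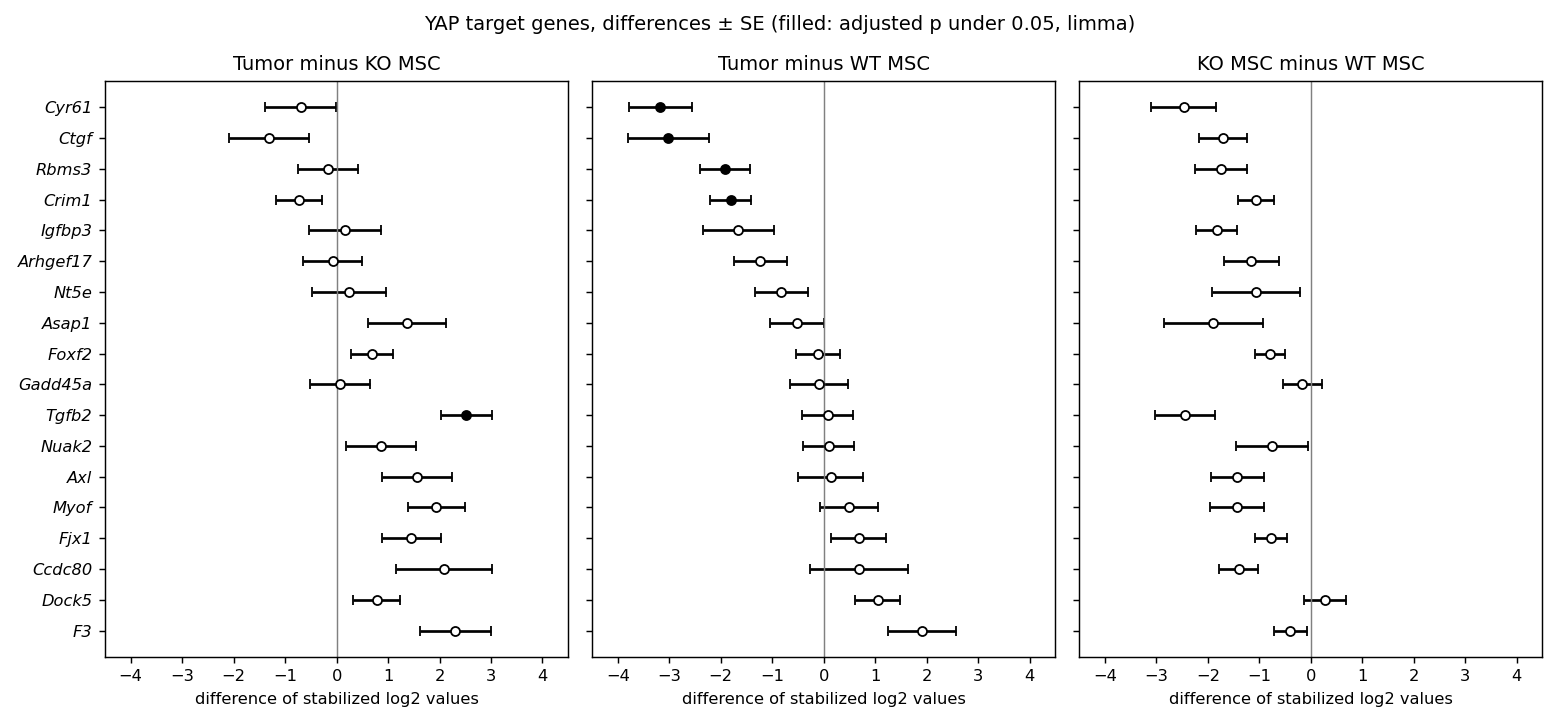
Differences of stabilized log2 values (horizontal axis) of 18 YAP target genes (rows, in the order of the middle panel) in tumors minus libraries labelled KO MSC, tumors minus WT MSC libraries and libraries labelled KO MSC minus WT MSC libraries; bars are ± 1 SE and filled points have an adjusted p under 0.05 in limma. In the right panel 17 of 18 points lie below 0 and none is filled, and in the middle panel 4 filled points lie below 0.

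Of the 7 genes of the Hippo kinase core, 2 fell in tumors against WT MSC libraries and 0 rose, beside 10.9% of all tested genes that fell, with 0 of 7 called in the other comparisons. Lats2, a kinase that inactivates YAP, was at 7.88, 8.21 and 8.95 (lowest, median, highest) in tumors, at 9.03, 8.20 and 7.94 in the libraries labelled KO MSC and at 9.84, 9.98 and 9.61 in WT MSC libraries. The WT MSC libraries were again the highest 3. Lats2 fell by 1.56 ± 0.30 (adjusted p = 0.00537, limma) and kept its call without each library in turn. Stk4 fell by 0.99 ± 0.28 (adjusted p = 0.0308, limma), a call lost in a fit over all 12 libraries (0.274), without tumor 2 or 3 and without any 1 WT MSC library (0.0541 to 0.116). Lats1, the relative of Lats2, differed by 0.25 ± 0.32. Of 15 upstream regulators, 1 rose and 2 fell against WT MSC libraries, a share near the 21.3% of all tested genes called. Map4k4, a kinase that can also activate LATS, rose by 1.75 ± 0.41 (adjusted p = 0.0133, limma). Frmd6, a membrane scaffold gene, fell by 1.94 ± 0.49 (0.0185) and Fat4, a giant cadherin gene, fell by 1.06 ± 0.28 (0.0227). Without single WT MSC libraries these calls were lost at an adjusted p of 0.0584 to 0.0997, all 3 of them without WT MSC 1. None of the 15 passed in the other comparisons, but 2 rose against the libraries labelled KO MSC without KO MSC 3. Of the 3 tested VGLL cofactor genes, which compete with YAP for TEAD factors, 0 passed in any comparison, and 1 rose against WT MSC libraries without tumor 1 or tumor 2, with quantile or upper-quartile scaling and in the other deposited table.

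Birc2 was lower in every tumor than in any MSC library, and Birc3 was lowest in the libraries labelled KO MSC and 1 tumor, but neither passed the test. Birc2 was at 7.04, 7.70 and 8.43 (lowest, median, highest) in tumors, at 9.27, 8.98 and 8.66 in the libraries labelled KO MSC and at 9.001, 8.77 and 8.64 in WT MSC libraries. The MSC groups overlapped, and tumors overlapped with neither. The differences were -1.26 ± 0.41 from the libraries labelled KO MSC (adjusted p = 0.0934, limma) and -1.10 ± 0.36 from WT MSC libraries (adjusted p = 0.0506, limma). The first was -1.34 in both batches, and the second -1.07 in batch 1 and -1.23 in batch 2. The second passed with a batch term (0.0438), with the filter on the mean (0.0341), with library weights (0.0209) and without tumor 1 (0.0268), and the first in the fit over all 12 libraries (0.0429) and with library weights (0.0119). Birc3 was at 7.64, 8.26 and 8.39 in tumors, at 7.72, 7.81 and 7.87 in the libraries labelled KO MSC and at 8.54, 8.46 and 8.32 in WT MSC libraries. The MSC groups did not overlap, at a difference of -0.64 ± 0.35 (adjusted p = 0.642, limma), and tumors overlapped with both. Tumors differed by 0.37 ± 0.34 from the libraries labelled KO MSC and by -0.27 ± 0.27 from WT MSC libraries. Birc2 and Birc3 are close paralogs, so reads that fit both could be counted for either, and how such reads were treated is not given in the sources used here.

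Of 12 further genes of the inhibitor of apoptosis family and its partners, 1 rose and 3 fell in tumors against WT MSC libraries, beside 10.4% of all tested genes that rose and 10.9% that fell. Birc5, survivin, which also acts in mitosis, rose by 1.43 ± 0.42 (adjusted p = 0.0330, limma), a call lost with a batch term (0.0531), with quantile scaling (0.101) and without 6 of the 9 libraries in turn. Casp9, the initiator caspase of the mitochondrial pathway, fell by 1.65 ± 0.35 (0.00780), and also against the libraries labelled KO MSC, by 1.79 ± 0.37 (0.0223). It was the 1 gene of the 12 called there, beside 2.28% of all tested genes that fell and 2.7% that rose. Traf2, the adaptor that recruits BIRC2 and BIRC3, fell by 1.66 ± 0.47 (0.0296) and Ripk1, their substrate, fell by 1.23 ± 0.38 (0.0402). Casp9 lost its call against the libraries labelled KO MSC without KO MSC 1 (0.129) or KO MSC 2 (0.0606), and against WT MSC libraries without WT MSC 1 (0.0537), and Traf2 without any 1 WT MSC library (0.0786 to 0.123). Ripk1 lost it with a batch term (0.0518), in the fit over all 12 libraries (0.137) and without any 1 WT MSC library or tumor 2, 3, 5 or 6 (0.0566 to 0.147). Without WT MSC 1, 0 of the 12 passed. Xiap, the member that blocks caspases directly, differed by 0.74 ± 0.42. Of 10 NF-kB genes, 1 rose and 2 fell in tumors against WT MSC libraries, beside the same shares of all tested genes. Nfkbia, an inhibitor of NF-kB and itself a target, rose by 1.48 ± 0.45 (0.0410), and the adhesion molecule gene Icam1 and the inhibitor gene Nfkbie fell by 2.82 ± 0.50 (0.00378) and 2.56 ± 0.49 (0.00520). Nfkbia lost its call with a batch term (0.0646), in the fit over all 12 libraries (0.0768), with all varying genes (0.0522), with quantile scaling (0.51, adjusted p = 0.420) and without any 1 WT MSC library or tumor 2, 3, 4 or 5 (0.0519 to 0.133), whereas Icam1 and Nfkbie kept theirs without each library in turn. None of the 10 passed in the other comparisons.

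Birc2 (7818227 to 7837064), Birc3 (7848699 to 7873186) and Yap1 (7931999 to 8004596) follow each other on chromosome 9, all on the minus strand (GENCODE annotation of GRCm38). This region is known to be amplified as 1 unit in some mouse and human cancers, so the tumors were compared gene by gene. Tumor 1 had the highest Yap1 (8.88, against 7.76 to 8.10 in the other tumors) and the highest Birc2 (8.43, against 7.04 to 8.15), but its Birc3 (8.34) was below that of tumor 4 (8.39). The 5 tested genes on either side were Mmp10, Mmp8, Mmp27, Mmp20 and Tmem123 before Birc2 and Cep126, 1700128F08Rik, Trpc6, Gm32014 and Pgr after Yap1. Of the 13 genes, 4 were highest in tumor 1: Birc2, Yap1, Cep126 and Trpc6, and Cep126 stood near its floor. Mmp20 and 1700128F08Rik were at the floor of their batch in all 6 tumors, and Gm32014 in 4. For these genes the highest tumor was set by the higher floor of batch 2, so they do not inform the count. The share of all genes highest in tumor 1 was not taken. Trpc6, a calcium channel gene, was at 8.12 in tumor 1, 7.88 in tumor 6 and 7.76 in tumor 3. Tmem123, a membrane mucin gene directly before Birc2, was at 11.3 in tumor 1 and 11.5 in tumor 6. None of the 10 flanking genes passed in any comparison. Over the 6 tumors the Pearson correlation was 0.64 between Yap1 and Birc2, 0.18 between Yap1 and Birc3 and 0.39 between Birc2 and Birc3, given as a description of points that share libraries. RNA levels do not measure copy number, which was not analysed here.

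**Figure D4:**
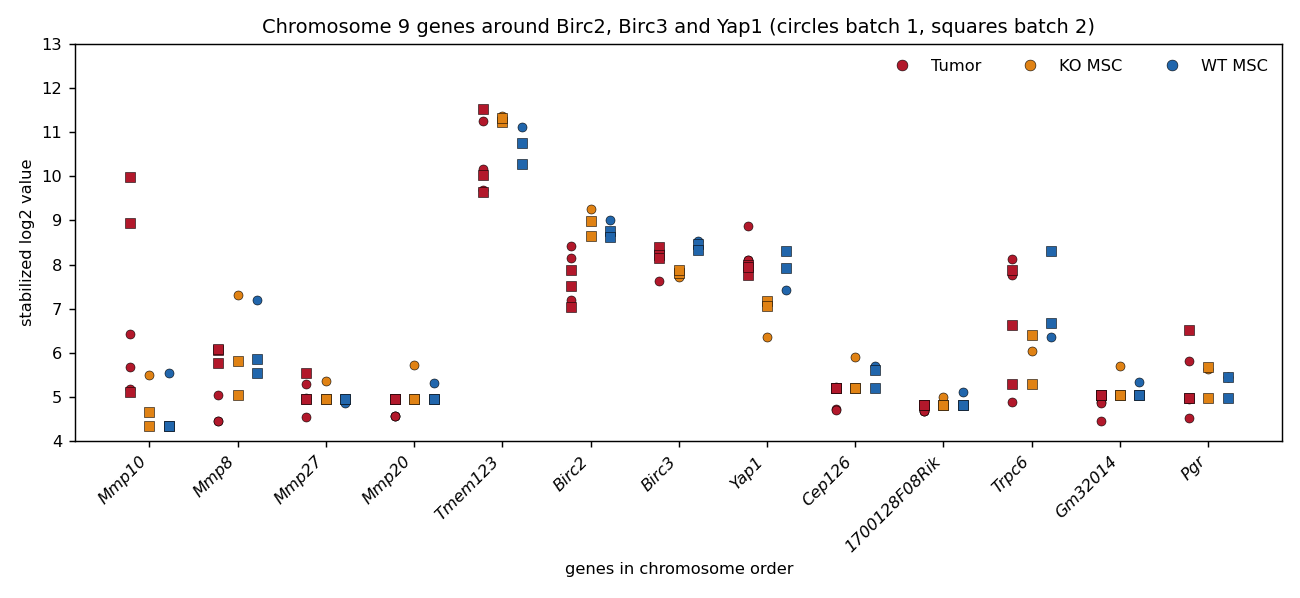
Stabilized log2 values (vertical axis) of 13 genes in their order on chromosome 9 (horizontal axis, not to scale), for 6 tumors, 3 libraries labelled KO MSC and 3 WT MSC libraries; each point is 1 library, circles are batch 1 and squares batch 2. Tumor 1 is the highest tumor for Birc2 and Yap1 and tumor 4 for Birc3, and Mmp10 is highest in 2 tumors at 8.94 and 9.98.

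Wwtr1 and Birc2 ran largely opposite to each other over the libraries. Tumor 2, with the highest Wwtr1 (12.17), had Birc2 at 7.21, and tumor 4 (11.65) had it at 7.04. Tumors 1 and 3, with the lowest Wwtr1 of the tumors (9.33 and 9.62), had the highest Birc2 of them (8.43 and 8.15), and KO MSC 1, the lowest of all for Wwtr1 (6.87), had the highest Birc2 (9.27). The Pearson correlation was -0.96 over the 6 tumors and -0.73 over the 6 MSC libraries. It was -0.97 over all 12, where tumors and MSC libraries stand apart (Spearman -0.96), -0.997 over the 5 libraries of batch 1 and -0.96 over the 7 of batch 2, and -0.95 without tumors 2 and 4, the 2 farthest from the median of Wwtr1. Of 10078 genes with a mean of at least log2 of 100, Birc2 had the most negative correlation with Wwtr1, and 54 had one below -0.9. This pair, 1 of 45 among the 10 genes, was chosen after its values were seen, and the points share libraries, batches and the unknown depth.

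**Figure D5:**
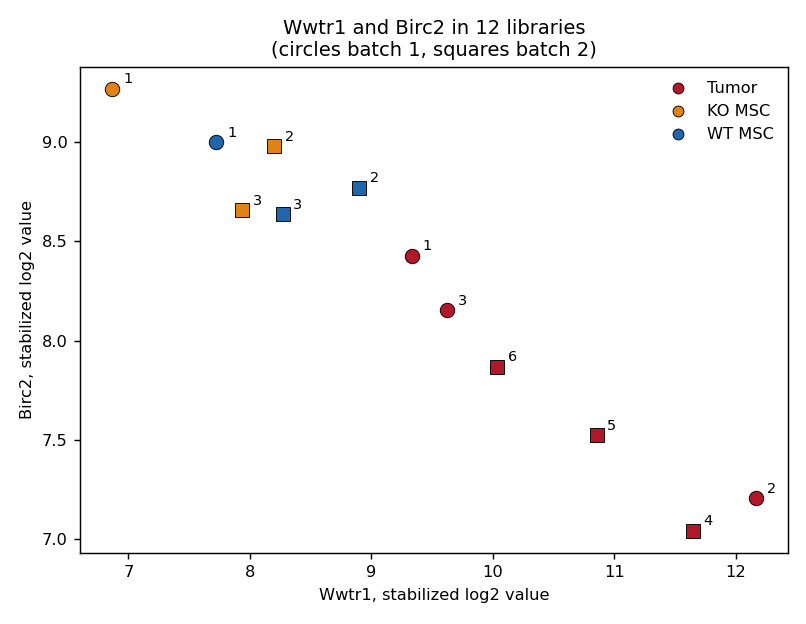
Wwtr1 (horizontal axis) and Birc2 (vertical axis), both as stabilized log2 values, in 6 tumors, 3 libraries labelled KO MSC and 3 WT MSC libraries; each point is 1 library with its replicate number, circles are batch 1 and squares batch 2. Birc2 is mostly lower where Wwtr1 is higher, also among the 6 tumors alone (Pearson r = -0.96), and less closely among the 6 MSC libraries (-0.73).

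The genes most like Yap1 over the 12 libraries, by Pearson correlation among 10078 genes, were Zfp948 (0.93), Itgb3 (0.92), Ccser2 (0.92), Actn1 (0.92) and Fermt2 (0.91). Actn1 encodes the actin cross-linker alpha-actinin, and Itgb3 and Fermt2 encode an integrin and the integrin activator kindlin at cell adhesions to matrix. Actn1 was also the first by Spearman correlation (0.92), and in tumors alone its correlation was 0.70. Those most like Birc2 were Kbtbd7 (0.98), Ranbp6 (0.97), Abcg2 (0.96), Pcca (0.95) and Elmod2 (0.95), with 0.98 and 0.96 for Kbtbd7 and Ranbp6 in tumors alone. Kbtbd7 encodes an adaptor of a cullin ubiquitin ligase, and Abcg2 a drug efflux pump. Those most like Ankrd1 were Sparcl1 (0.97), Npc1 (0.96), Ccl5 (0.96), Wasf2 (0.96) and Hcfc1r1 (0.96). Sparcl1 is a matricellular protein gene and Ccl5 a chemokine gene of leukocytes. Ranking by Spearman correlation left 1, 3 and 1 of the 5 genes named for Yap1, Birc2 and Ankrd1 among the first 5, and ranking in tumors alone left 0 of each.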

How the data were processed

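RNA was sequenced in bulk from 6 tumors, 3 libraries labelled KO MSC and 3 WT MSC libraries. MSC RNA came from sorted cells and tumor RNA from TRIzol extracts, per the labels' protocols. SMART-Seq v4 cDNA was sheared and went into unstranded NEBNext Ultra DNA libraries. TopHat2 2.0.13, Cufflinks 2.2.1, Cuffdiff and mm10 are named in the submitters' processing notes. The authors deposited log2 values of 24421 genes, titled as variance-stabilized and batch-adjusted. They also deposited a score for 18949 genes, titled as normalized counts, which equals 100 times the stabilized value after rounding and division by 1 factor per library in 100.0% of genes. Neither holds reads, so the depth per library is unknown and no counting interval is given. The batch adjustment shifted the floors of both batches by equal and opposite amounts in 100.0% of 8352 genes.

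The groups of a comparison were fitted alone in limma 3.58.1 under R 4.3.3 (linear model, moderated with a mean trend, two-sided, no covariate), on the 18948 genes of the score table that varied. Benjamini-Hochberg adjustment ran over all of them, and an adjusted p under 0.05 passed. No pseudocount was added, since the values are logarithms. The fit was tried on simulated independent normal values. These had no floor, batch shift or shared library effect, so the trial does not cover those features of the data. The 10 genes and the lists were chosen with earlier results of these data known. Named were the 10 genes, Trp53, up to 4 genes a list with the smallest adjusted p, 5 neighbours on either side on chromosome 9 and the 5 genes most alike, from which the text takes a part; Ctgf, Xiap and Cd37 were added after their values were seen. Alternatives were a batch term, each batch alone, a replicate block, 1 fit over 12 libraries, other filters (all varying genes, or a mean of at least log2 of 100), quantile and upper-quartile scaling, the score table, library weights and leaving out each library. Distances above the floor and the within-batch correlations of Wwtr1 and Birc2 were added after the data were seen. Promoter windows came from RefSeq (GRCm38.p6), and coordinates of genes from GENCODE (GRCm38). Same-numbered libraries did not deviate together (correlations of -0.32 to 0.24), so the replicate numbers were not taken as pairs. The replicate block used only numbers found in both groups, and so left out tumors 4 to 6.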

Additional observations from a re-analysis of the deposited data

Results flagged for a closer look

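Yap1 in tumor 1 was 8.88, far above the other 5 tumors at 7.76 to 8.10, with a gap of 0.699 of the range of the group (above Dixon's 95% critical value). Birc3 in tumor 2 was 7.64, far below the other 5 tumors at 8.15 to 8.39, with a gap of 0.678 of the range, also above it. There were 11 genes checked, and chance flags about 1 in 20 groups.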

How the results depend on the processing

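The calls in tumors rest on few libraries, and the depth behind them is unknown. Between the libraries labelled KO MSC and WT MSC libraries, 0 genes passed in most settings, 43 in batch 2 alone and 2447 with library weights, with which 1 of the 10 genes passed. In tumors against the libraries labelled KO MSC, 944 genes passed, and 3247 in batch 1 alone, 27 in batch 2 alone, 47 with the replicate block, 1923 in 1 fit over 12 libraries, 1545 with quantile scaling, 4821 with library weights and 113 to 1627 without 1 library in turn. The 10 genes had 4 calls there, and 1 in batch 1, 0 in batch 2, 0 with the replicate block and 0 to 4 without 1 library in turn (0 without KO MSC 1). In tumors against WT MSC libraries, 4033 genes passed, and 540 in batch 2 alone, 1194 with the replicate block, 6821 with library weights and 1856 to 4737 without 1 library in turn. The 10 genes had 4 calls there, 1 in batch 1, 0 in batch 2 and 2 to 5 without 1 library in turn. The replicate block kept only replicate numbers found in both groups. In the tumor comparisons it therefore left out tumors 4 to 6, and its counts do not show the effect of blocking alone. Batch 1 alone has 1 library in each MSC group, so its spread comes from tumors. The estimate of library weights converged only in tumors against WT MSC libraries, of the 3 comparisons.

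The replicate block, whose numbers did not pair, left Wwtr1 in tumors 1 to 3 against WT MSC libraries at 2.08 (adjusted p = 0.0627, limma). Small differences changed sign, and for these the cause was not tested. Between the MSC groups, Tead2 was -0.22 without KO MSC 3 and -0.18 without WT MSC 1 (-0.22 to 0.58 without 1 library in turn), and Ankrd1 was 0.32 with quantile scaling, 0.092 with upper-quartile scaling, 0.031 in the score table, 0.56 without KO MSC 1 and 0.27 without WT MSC 2 or WT MSC 3 (-0.57 to 0.56 without 1 library in turn). In tumors against the libraries labelled KO MSC, Amotl2 was 0.18 in batch 2 and 0.10 without KO MSC 1 (-0.94 to 0.10 without 1 library in turn). In tumors against WT MSC libraries, Yap1 was -0.22 in batch 2. Tead3 was -0.38 in batch 2, -0.0021 with quantile scaling, -0.17 with library weights, and -0.23 to 0.39 without 1 library in turn, below 0 without tumor 1, tumor 4, WT MSC 1 or WT MSC 3. Tead4 was -0.10 in batch 1 and -0.014 without WT MSC 3 (-0.014 to 0.22 without 1 library in turn). Upper-quartile scaling put the median difference of all genes at 0.09 between the MSC groups and at 0.05 in tumors against WT MSC libraries, against -0.01 and -0.06 without it.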

Other observations

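Mmp10, a stromelysin gene and the farthest of the 5 flanking genes before Birc2, was uneven among tumors, with 9.98 in tumor 5 and 8.94 in tumor 4, against 5.12 to 6.43 in the other 4. Its differences from the libraries labelled KO MSC (2.06 ± 1.03) and from WT MSC libraries (2.15 ± 1.04) did not pass (adjusted p = 0.219 and 0.157, limma). Tead2 and Ankrd1, which both rose in tumors, had a Pearson correlation of -0.79 among the 6 tumors: tumor 6 had the highest Tead2 (9.27) and the lowest Ankrd1 (6.41), and tumor 5 the lowest Tead2 (7.72) and the highest Ankrd1 (10.15). These pairs were chosen after their values were seen.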
